A study of Caenorhabditis elegans with 43 samples.

Results

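The comparison described here sets 3 libraries of *hif-1* mutant worms against 3 wild-type libraries of the same sequencing batch, 6 of the 43 RNA-seq libraries in the series. The libraries were chosen by their names in the deposited table of normalized CPM, which are read counts scaled to a fixed library size. The mutant carried *hif-1(ia4)*, a partial deletion of the *hif-1* gene, as a single mutation, and the wild-type strain was N2 Bristol. Both strains were whole worms, collected as prefertile young adults from plates of nematode growth medium with live OP50 bacteria, with no hypoxia treatment described, so the comparison asks which transcripts differ in normoxia when HIF-1 is lost. RNA was isolated separately for each sample. A whole-worm library cannot tell fewer cells of a type from less RNA per cell, and the comparison rests on a single mutant allele. Levels are also given for the other labelled strains, which are *nuo-6;hif-1* (n = 2), *atfs-1(et15)* (n = 5), *atfs-1(et17)* (n = 6) and an *atfs-1* deletion (n = 3) of batch 1, *nuo-6* (n = 6) with 6 wild-type libraries of batch 2, and *atfs-1* (n = 3) with 3 wild-type libraries of batch 3. The *nuo-6* mutation alters a subunit of mitochondrial complex I, and *et15* and *et17* are gain-of-function alleles of *atfs-1*, the transcription factor of the mitochondrial unfolded protein response.

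HIF-1 is the worm's hypoxia-inducible factor, a basic helix-loop-helix transcription factor that pairs with AHA-1. While oxygen is present the prolyl hydroxylase EGL-9 marks HIF-1, and the ubiquitin ligase that holds VHL-1 then directs its breakdown, so little HIF-1 protein accumulates in air. In hypoxia, in hydrogen sulfide or when iron is scarce, HIF-1 is stabilized and acts on genes of sulfide detoxification, metabolism and iron handling. In worms short of iron it is known to lower ferritin transcripts and to raise the intestinal iron importer *smf-3*.

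Between 35001821 and 36798169 reads were counted on genes in the *hif-1* libraries, against 34767878 and 36403473 in the wild-type libraries, and 13837 genes were tested. Markers of muscle, intestine, neurons and pharynx were detected in all 6 libraries. Of the 27 tested markers of these tissues, 0 differed past the threshold used below, which 0.455% of all genes passed. Transcripts that mark stage varied within both strains. Summed molting transcripts were 180, 288 and 1365 normalized CPM in *hif-1* worms, against 203, 889 and 177 in wild-type worms, so *hif-1* replicate 3 and wild-type replicate 2 stood apart from the rest of their strains. A stage index, the first principal component of yolk, oocyte, sperm and molting transcripts, was 10.6, 5.79 and -4.07 in *hif-1* worms and 8.85, -1.70 and 10.8 in wild-type worms, and the strains overlapped.

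The deleted gene was examined first. The *hif-1* gene (chromosome V, 20780407 to 20785260 in WBcel235) had 32.3, 28.4 and 18.5 normalized CPM in *hif-1* worms, against 220, 208 and 191 in wild-type worms. All 3 mutant libraries were far below the wild-type libraries, in accord with their labels. On the log2 scale used for all tests, log2(normalized CPM + 0.5), the difference of *hif-1* minus wild-type was -2.98 ± 0.17 (SE, limma adjusted p = 1.34e-09). Reads remained in the mutant, and which exons they came from is not part of a count per gene. The 2 *nuo-6;hif-1* libraries held 34.96 and 43.37 normalized CPM.

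Few transcripts differed between *hif-1* and wild-type worms. Of the 13837 genes, 63 (0.455%) differed between *hif-1* and wild-type worms at an adjusted p under 0.05 (limma, Benjamini-Hochberg). Of these, 43 (0.311% of genes) were higher in *hif-1* worms and 20 (0.145%) were lower. All 63 had *hif-1* and wild-type libraries that did not overlap, a separation that 688 genes (4.97%) showed upwards and 593 (4.29%) downwards. The median difference over all genes was -0.01. The count was 40 without *hif-1* replicate 1 (25 of them higher) and 38 without wild-type replicate 1 (24 higher), and without *hif-1* replicate 2 the number of higher genes was 28. In a fit of the 6 libraries alone, with fewer degrees of freedom, 16 genes were called, 8 in each direction.

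**Figure D1:**
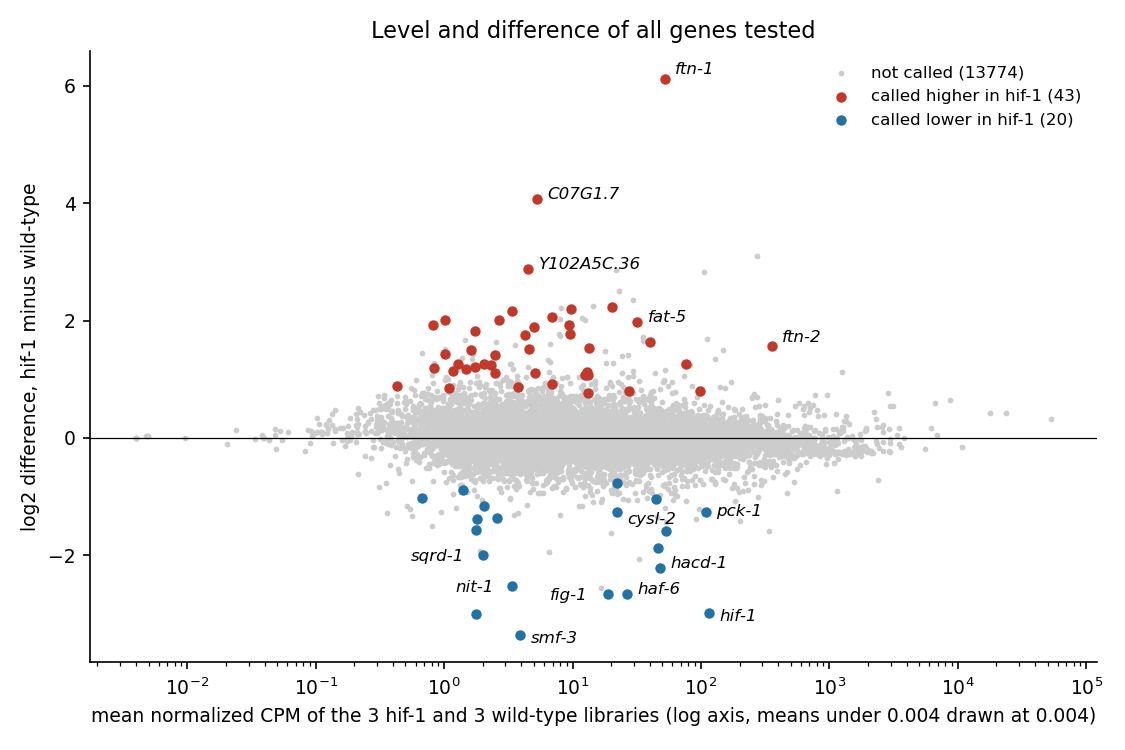
Each point is 1 of the 13837 genes tested. The x axis gives the mean normalized CPM of the 3 *hif-1* and 3 wild-type libraries on a log axis, and the y axis the log2 difference of *hif-1* minus wild-type. The 43 genes called higher (red) and the 20 called lower (blue) lie around a grey cloud centred near 0, with *ftn-1* at the top at 6.12 and *smf-3* at the bottom at -3.35.

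On the log2(normalized CPM + 0.5) scale, the largest change in each direction was in a gene of iron metabolism. That order depends on the scale, since by the ratio of mean normalized CPM *C07G1.7* rose more than *ftn-1* (121-fold and 108-fold) and *F42G4.6*, with 0 reads in *hif-1* worms, was at least 40.5-fold lower, against 26.5-fold for *smf-3*. The ferritin gene *ftn-1*, which encodes an iron storage protein of the intestine, had 158, 93.0 and 61.1 normalized CPM in *hif-1* worms, against 0.594, 1.66 and 0.642 in wild-type worms. Every mutant library lay far above every wild-type library, and the difference was 6.12 ± 0.41 (adjusted p = 1.17e-08). The second ferritin gene, *ftn-2*, is expressed more broadly and more highly. It had 506, 562 and 532 normalized CPM in *hif-1* worms and 189, 172 and 181 in wild-type worms. The rise was smaller than that of *ftn-1*, 1.56 ± 0.15 (adjusted p = 2.38e-06), but the libraries within each strain were close together. *smf-3*, the worm's counterpart of the divalent metal transporter DMT1 that takes up iron from the gut lumen, was nearly lost. Its level was 0.270, 0.354 and 0.228 normalized CPM in *hif-1* worms (9, 12 and 8 reads), against 6.45, 8.68 and 7.46 in wild-type worms (217, 319 and 244 reads). The difference was -3.35 ± 0.20 (adjusted p = 1.96e-09).

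Of the 6 genes listed for iron storage and uptake, 5 were tested, and 2 rose, 1 fell and 2 did not pass the test. The transporter *smf-1* had 10.7, 10.5 and 12.7 normalized CPM in *hif-1* worms and 9.06, 10.9 and 8.28 in wild-type worms (0.25 ± 0.17). *aco-1*, the aconitase related to iron regulatory proteins, differed by 0.15 ± 0.18, and its strains overlapped.

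The iron genes also stood apart from all other strains. In each of the 35 libraries of labelled strains that carry a wild-type *hif-1* gene, *ftn-1* was at or below 35.7 normalized CPM, *ftn-2* at or below 277 and *smf-3* at or above 2.204. The *nuo-6;hif-1* libraries lay on the side of *hif-1* worms, with 395 and 177 normalized CPM of *ftn-1*, 579 and 653 of *ftn-2* and 0.0594 and 0.294 of *smf-3*. The *hif-1* mutant did not differ past the threshold from the double mutant in *smf-3* (0.23 ± 0.22, adjusted p = 0.40) or *ftn-2* (-0.21 ± 0.17, adjusted p = 0.31), in a comparison that called 50% of all genes (6921). *ftn-1* was lower in *hif-1* than in *nuo-6;hif-1* worms (-1.45 ± 0.46, adjusted p = 0.0138). In *nuo-6* worms with an intact *hif-1* gene, *ftn-1* ranged from 8.25 to 35.7 normalized CPM, against 1.09 to 3.45 in wild-type worms of batch 2.

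**Figure D2:**
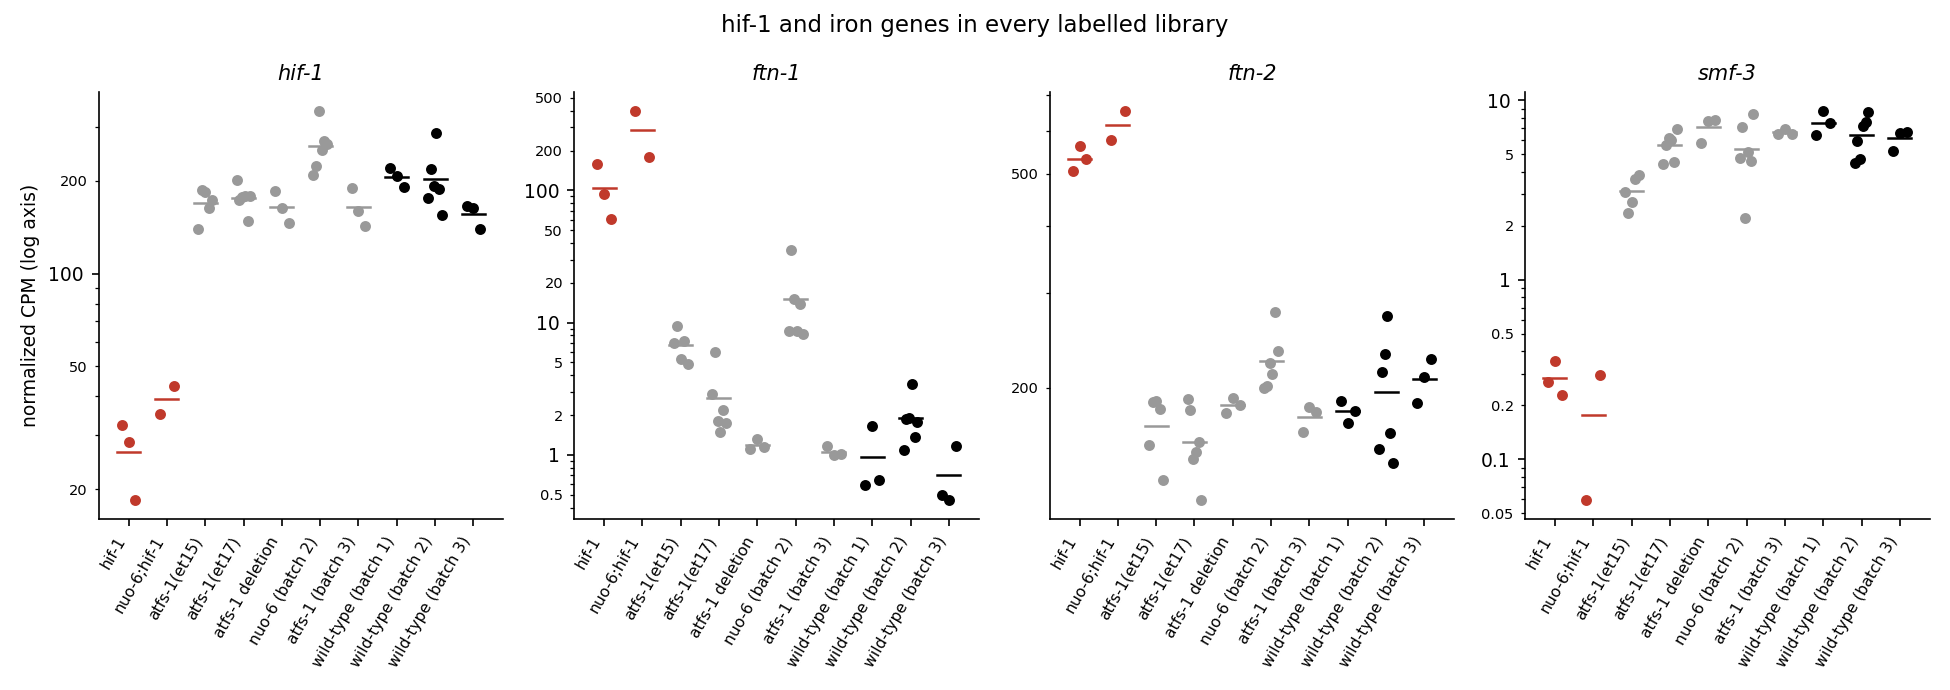
Normalized CPM on a log axis for *hif-1*, *ftn-1*, *ftn-2* and *smf-3* in every labelled library, 1 point per library with a line at the mean of each strain. Strains lacking *hif-1* are red, wild-type black and the rest grey. In each panel the 5 red points lie apart from all 35 others, with *ftn-2* between 506 and 653 in the red points and at most 277 in the others.

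Most known hypoxia targets of HIF-1 did not pass the test in air. Of 13 listed targets, 12 were tested, and by limma 0 rose, 2 fell and 10 were not called, where 0.145% of all genes fell. The median difference was -0.24 against -0.01 over all genes. The 2 that fell both act on sulfur compounds. *sqrd-1*, the mitochondrial sulfide quinone oxidoreductase that starts sulfide breakdown, had 0.781, 0.442 and 0.343 normalized CPM in *hif-1* worms, against 4.19, 2.97 and 3.42 in wild-type worms (-1.99 ± 0.25, adjusted p = 0.000151). *cysl-2*, which encodes a cyanoalanine synthase of the cysteine synthase family, had 16.6, 12.4 and 10.1 normalized CPM in *hif-1* worms, against 34.3, 29.5 and 30.1 in wild-type worms (-1.26 ± 0.18, adjusted p = 0.00083). Neither gene's strains overlapped.

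The other 10 targets were not called by limma or edgeR, and DESeq2 called 1 of them, *R08E5.3*. It had 1.92, 4.39 and 8.20 normalized CPM in *hif-1* worms and 35.6, 32.99 and 16.8 in wild-type worms. Its libraries did not overlap, but the difference of -2.55 ± 0.67 missed the threshold (limma adjusted p = 0.148), while DESeq2 gave -2.54 ± 0.61 (adjusted p = 0.006). *F22B5.4* (-0.43 ± 0.22) and the flavin-containing monooxygenase gene *fmo-2* (-0.62 ± 0.30) also had separate libraries, *fmo-2* at under 1 normalized CPM throughout, and neither was called. *nhr-57*, a nuclear receptor gene long used as a readout of HIF-1, differed by -0.04 ± 0.23 and its strains overlapped. The lactate dehydrogenase gene *ldh-1* (0.01 ± 0.31) and *egl-9* itself (-0.04 ± 0.22) overlapped as well. *rhy-1*, a membrane protein that restrains HIF-1 in a feedback loop, had 15.98, 22.8 and 20.8 normalized CPM in *hif-1* worms and 13.6, 13.4 and 14.9 in wild-type worms, and was not called (0.48 ± 0.44).

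**Figure D3:**
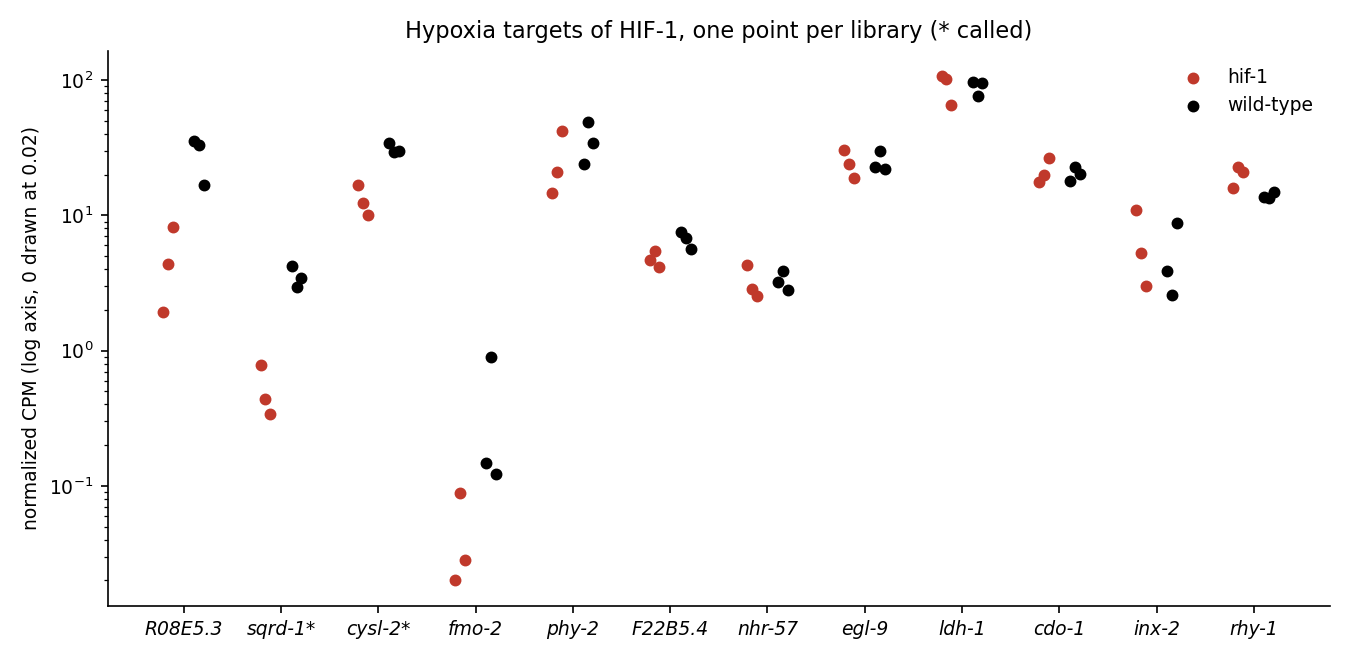
Normalized CPM on a log axis of the 12 tested hypoxia targets of HIF-1, 1 point per library, with the 3 *hif-1* libraries (red) to the left of the 3 wild-type libraries (black) for each gene. Genes run from the most negative to the most positive difference, and asterisks mark *sqrd-1* and *cysl-2*, the only targets called.

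Of 11 genes listed as HIF-1, its partners and its regulators, only *hif-1* was called, and the other 10, among them *aha-1* (0.08 ± 0.18) and *vhl-1* (0.07 ± 0.14), were not. In hydrogen sulfide and cysteine metabolism, 16 of 20 genes were tested, and *sqrd-1* and *cysl-2* were the 2 that fell while 0 rose (median -0.12). Glycolysis genes and lactate dehydrogenase, which HIF factors raise in hypoxic mammalian cells, gave 0 calls among 20, with a median of -0.06 and a range of -0.32 to 0.21. Collagen prolyl hydroxylases and their partners gave 0 calls among 5. Genes of oxygen and carbon dioxide sensing gave 0 among 8 of 17 listed. The 36 respiratory chain genes, all encoded in the nucleus, gave 0 calls, with 28 of them on the negative side (median -0.09). Over all genes 0.455% were called. The mitochondrial genome gave 0 calls among 14. Of its genes, *ctb-1*, named after its values were seen, had 3511, 3572 and 3654 normalized CPM in *hif-1* worms, against 2368, 1936 and 2005 in wild-type worms. Its adjusted p was 0.214 in limma and 0.0249 in DESeq2, and *atp-6*, given below, was higher too.

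Stress and immune lists also held few calls. Lists this short would hold few at the share of all genes called (0.455%). The mitochondrial chaperones and proteases gave 0 calls among 13 by limma (2 at an unadjusted p under 0.05), although 5 of them had every *hif-1* library above every wild-type library. The chaperone gene *hsp-6*, the standard readout of the mitochondrial unfolded protein response, had 1280, 1184 and 1139 normalized CPM in *hif-1* worms and 766, 627 and 787 in wild-type worms. The difference of 0.73 ± 0.17 missed the threshold in limma (adjusted p = 0.0579), and *hsp-6* was called by edgeR and DESeq2 (adjusted p = 0.000433 in DESeq2). Among 14 cytosolic heat shock genes, 1 fell, the small heat shock gene *hsp-12.3*, with 0.901, 0.471 and 0.543 normalized CPM in *hif-1* worms and 3.83, 2.94 and 1.99 in wild-type worms (-1.57 ± 0.29, adjusted p = 0.0107). Among 17 genes of SKN-1 and glutathione, 14 lay on the positive side (median 0.35), and the single call was the fall of *nit-1*. In 7 of the 17 every *hif-1* library lay above every wild-type library, and in 1 below. Over all genes these shares were 4.97% and 4.29%. Among 36 immune response genes, 30 lay on the positive side (median 0.30), and 8 had every *hif-1* library above every wild-type library, with 0 below. limma and edgeR called 0 of them, with 7 at an unadjusted p under 0.05 in limma, and DESeq2 called 3 as higher, *spp-2* (1.73 ± 0.46, adjusted p = 0.0197), *lys-7* (1.42 ± 0.38, adjusted p = 0.0224) and *clec-67* (1.17 ± 0.29, adjusted p = 0.00876). Endoplasmic reticulum stress genes gave 0 calls among 11 and epidermal antimicrobial peptide genes 0 among 10. Among 21 DAF-16 targets, *ftn-1* was the only gene called by limma and edgeR, and DESeq2 called 3.

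Markers of the germline and of stage held no calls either, where 0.455% of all genes were called. All 29 tested sperm genes lay on the negative side (median -0.37) and all 6 yolk genes on the positive side (median 0.49), with 0 called in both lists. Summed sperm transcripts were 1190, 1484 and 1139 normalized CPM in *hif-1* worms and 2056, 1719 and 1292 in wild-type worms, and the strains overlapped. Oocyte and eggshell genes gave 0 calls among 18, and molting genes 0 among 15 (median 0.44). With the stage index as a covariate, 101 genes were called, and all 63 genes were among them. In the lists given with 0 calls, other than the mitochondrial chaperones and the immune genes, edgeR and DESeq2 also called 0 and 0 genes had an unadjusted p under 0.05 in limma.

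**Figure D4:**
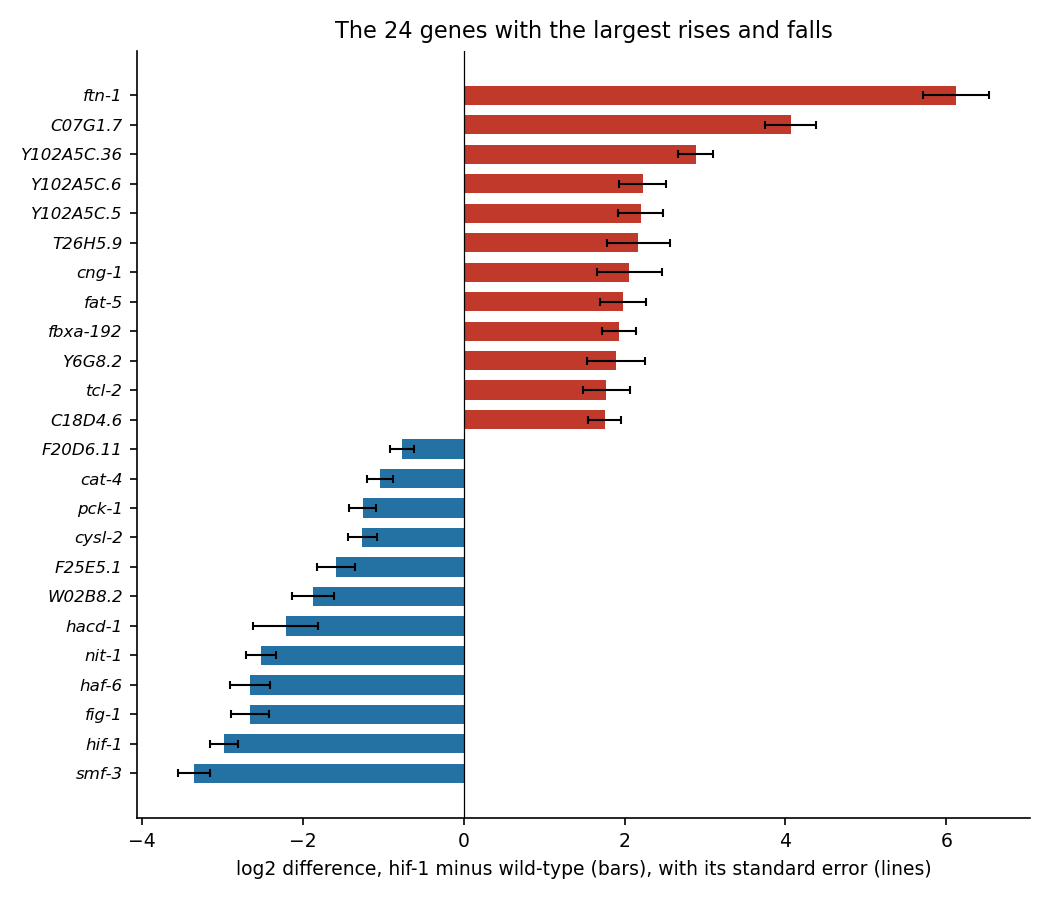
Log2 difference of *hif-1* minus wild-type for the 12 largest rises (red) and the 12 largest falls (blue) among called genes that averaged 5 normalized CPM or more in 1 of the strains. Bars start at 0 and lines give the standard error. *ftn-1* (6.12) and *C07G1.7* (4.06) exceed all other rises, and *smf-3*, *hif-1*, *fig-1*, *haf-6*, *nit-1* and *hacd-1* fell by more than 2.

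Next to *smf-3* and *hif-1*, the largest falls were in 3 genes, *fig-1*, *haf-6* and *nit-1*. *fig-1*, which encodes a secreted thrombospondin-repeat protein of the amphid sheath glia, had 5.26, 4.27 and 4.94 normalized CPM in *hif-1* worms, against 33.7, 34.7 and 30.4 in wild-type worms (-2.65 ± 0.23, adjusted p = 7.85e-07). *haf-6*, a half-molecule ABC transporter needed for efficient RNA interference, had 7.27, 6.72 and 6.54 normalized CPM in *hif-1* worms, against 49.1, 40.1 and 48.4 in wild-type worms (-2.65 ± 0.25, adjusted p = 2.38e-06). *nit-1*, a nitrilase gene, had 0.901, 0.560 and 0.514 normalized CPM in *hif-1* worms, against 5.53, 6.56 and 6.11 in wild-type worms (-2.52 ± 0.19, adjusted p = 5.86e-08). *haf-6* and *nit-1*, like *cysl-2*, *cat-4*, *C07G1.7*, *fat-5* and *cng-1*, overlap a coding gene on the opposite strand, and the strand setting of the counting is not given in the sources used here. In the 3 genes above the libraries of each strain were close together and the strains were widely separated. *F42G4.6*, which lay below the level set for the largest falls, had 0 reads in all 3 *hif-1* libraries and 3.98, 4.03 and 2.69 normalized CPM in wild-type worms. With a floor of 3 reads per library, it was at least 40.5-fold lower in *hif-1* worms.

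Among the other falls were 3 genes of metabolic enzymes. *hacd-1*, a hydroxyacyl-CoA dehydrogenase of fatty acid oxidation, had 13.04, 21.3 and 16.9 normalized CPM in *hif-1* worms, against 82.9, 78.2 and 77.4 in wild-type worms (-2.21 ± 0.40, adjusted p = 0.00856). The call was lost without *hif-1* replicate 1 (adjusted p = 0.0764) and without wild-type replicate 1 (adjusted p = 0.0535), although the values of the strains lay far apart. *pck-1*, a phosphoenolpyruvate carboxykinase of gluconeogenesis, had 56.7, 64.2 and 72.3 normalized CPM in *hif-1* worms, against 149, 160 and 153 in wild-type worms (-1.26 ± 0.17, adjusted p = 0.000349). It was the only gene called among 9 of the glyoxylate cycle and gluconeogenesis. *cat-4*, the GTP cyclohydrolase that supplies the cofactor for dopamine and serotonin synthesis, had 28.4, 30.4 and 27.96 normalized CPM in *hif-1* worms, against 59.3, 62.4 and 57.9 in wild-type worms (-1.04 ± 0.16, adjusted p = 0.00121). The libraries of each strain differed by under 5 normalized CPM.

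The smallest named fall was that of *F20D6.11*. It had 16.22, 15.7 and 16.7 normalized CPM in *hif-1* worms and 26.6, 28.5 and 28.6 in wild-type worms (-0.76 ± 0.15, adjusted p = 0.0129). Its values were tight, but the call was lost in 4 of the 6 fits that left out a library, *hif-1* replicate 1 or 2 (adjusted p = 0.0611 and 0.0813) or wild-type replicate 2 or 3 (0.0609 and 0.0624).

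The falls of *W02B8.2* and *F25E5.1* depended on which wild-type libraries were used. *W02B8.2* had 26.6, 18.7 and 13.8 normalized CPM in *hif-1* worms and 75.0, 55.6 and 86.2 in wild-type worms of the same batch (-1.87 ± 0.26, adjusted p = 0.000349). Wild-type worms ranged from 8.71 to 19 normalized CPM in batch 2 and from 17.7 to 34.9 in batch 3, and the *atfs-1* deletion of batch 1 from 20.7 to 36.1, levels that overlapped those of *hif-1* worms. *F25E5.1* had 28.3, 25.7 and 22.6 normalized CPM in *hif-1* worms and 90.8, 47.0 and 108 in wild-type worms of the same batch (-1.58 ± 0.24, adjusted p = 0.000909), but 22.2 to 33.2 in wild-type worms of batch 2 and 29.6 to 41.5 in those of batch 3. With all 12 wild-type libraries as 1 group and no batch term, both calls were lost (-0.31, adjusted p = 0.98 for *W02B8.2*, and -0.53, adjusted p = 0.594 for *F25E5.1*). The fall of *pck-1* was lost in that fit too (-0.91, adjusted p = 0.137). With a batch term in the fit of all batches, the differences were those of batch 1 and the calls were kept. The limma adjusted p was then 5.82e-05 for *W02B8.2*, 3.22e-06 for *F25E5.1* and 2.04e-05 for *pck-1*. Wild-type worms of batch 3 held 47.8 to 64 normalized CPM of *pck-1*, and those of batch 2 138 to 194.

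Below every one of the 35 libraries with a wild-type *hif-1* gene lay 10 of the 20 falls, against 19 genes (0.137%) in the whole table. These were *smf-3*, *hif-1*, *fig-1*, *haf-6*, *nit-1*, *F20D6.11*, *sqrd-1*, *F42G4.6*, *C32C4.3* and *T05F1.9*, and the 3 wild-type libraries of batch 1 are part of both counts. In the *nuo-6;hif-1* double mutant, *hif-1*, *smf-3* and *nit-1* lay below those 35 libraries too, and the other 7 did not. *fig-1* had 36.1 and 33.9 normalized CPM in the double mutant, against 30.4 to 34.7 in wild-type worms, and *hif-1* minus *nuo-6;hif-1* was -2.74 ± 0.26 (adjusted p = 7.12e-07). *F42G4.6* had 3.35 and 2.41 normalized CPM in the double mutant, against 0 reads in *hif-1* worms. *haf-6* had 13.03 and 40.01 normalized CPM in the 2 double mutant libraries, and the same difference was -1.67 ± 0.28 (adjusted p = 0.000258). *sqrd-1* had 3.47 and 2.74 normalized CPM in the double mutant (-1.83 ± 0.28 for *hif-1* minus *nuo-6;hif-1*, adjusted p = 0.000136), and in *nuo-6* worms it ranged from 14.2 to 20.5. *F20D6.11* had 39.8 and 34.5 normalized CPM in the double mutant, above all *hif-1* and wild-type libraries of the batch. The double mutant libraries had stage indices of -17.4 and -14.4, below those of all *hif-1* libraries. The 35 libraries with a wild-type *hif-1* gene had indices from -18.7 to 10.8. In them *F42G4.6* ranged from 1.56 to 4.81 normalized CPM and *fig-1* from 14.7 to 39.0. The parts of stage, of the *nuo-6* mutation and of other differences between the strains were not tested and cannot be told apart here.

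*C07G1.7* had the second largest rise on the log2 scale used here and the largest ratio of mean normalized CPM among the called genes, 121-fold against 108-fold for *ftn-1*. It had 16.7, 10.1 and 4.66 normalized CPM in *hif-1* worms (557, 342 and 163 reads), against 0.0594, 0.109 and 0.0917 in wild-type worms (2, 4 and 3 reads). The difference was 4.06 ± 0.31 (adjusted p = 7.55e-08), a scale that understates the change of so low a gene. *C07G1.7* lies on chromosome IV from 8210906 to 8211847 and carries no described role in the annotation used here.

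A cluster on chromosome V held the next 3 rises. *Y102A5C.36*, *Y102A5C.5* and *Y102A5C.6* lie between 16926922 and 16930063, and *Y102A5C.5* and *Y102A5C.6* are annotated as pseudogenes. *Y102A5C.36* had 9.61, 8.04 and 7.398 normalized CPM in *hif-1* worms, against 0.713, 0.762 and 0.611 in wild-type worms (2.88 ± 0.22, adjusted p = 5.86e-08). *Y102A5C.6* had 38.6, 36.9 and 26.4 normalized CPM in *hif-1* worms, against 7.67, 7.35 and 5.53 in wild-type worms (2.22 ± 0.29, adjusted p = 0.000208). *Y102A5C.5* had 18.1, 18.8 and 12.02 normalized CPM in *hif-1* worms, against 3.77, 3.18 and 2.45 in wild-type worms (2.198 ± 0.28, adjusted p = 0.000139). All 3 were separate in every library, and because they are neighbours they are not independent observations. In *nuo-6;hif-1* worms *Y102A5C.36* had 5.995 and 4.502 normalized CPM, above wild-type worms of the batch. *Y102A5C.6* had 6.975 and 12.59 there and *Y102A5C.5* 2.582 and 5.678, each with a library within the wild-type range. All 3 were higher in *hif-1* than in *nuo-6;hif-1* worms (0.627, 1.783 and 1.918, limma adjusted p = 0.0372, 0.000476 and 0.000191). The cause was not tested.

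The desaturase gene *fat-5* was another rise. It encodes the palmitoyl-CoA desaturase of worms and had 42.6, 77.5 and 35.8 normalized CPM in *hif-1* worms, against 12.81, 11.9 and 11.6 in wild-type worms (1.98 ± 0.29, adjusted p = 0.000769). The wild-type libraries of batch 1 were nearly equal and every mutant library lay above them. Wild-type worms of batch 2 ranged more widely, from 7.393 to 34.04 normalized CPM, close to the lowest *hif-1* library. Those of batch 3 ranged from 5.395 to 6.949. Of 26 genes of fatty acid desaturation and oxidation, *fat-5* rose, *hacd-1* fell and 24 were not called by limma or edgeR. The stearoyl-CoA desaturase genes *fat-6* (0.41 ± 0.33) and *fat-7* (0.87 ± 0.42) overlapped between the strains. The lipase genes *lipl-1* and *lipl-2* differed by 2.51 ± 0.70 and 2.24 ± 0.57 with separate libraries and missed the threshold in limma (adjusted p = 0.202 and 0.131). DESeq2 called both, *lipl-1* at 2.83 ± 0.65 (adjusted p = 0.00252) and *lipl-2* at 2.29 ± 0.57 (adjusted p = 0.0108). *acdh-1* and *ech-6*, genes of the propionate shunt, were lower in all *hif-1* libraries but not called (-0.90 ± 0.93 and -0.76 ± 0.36).

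Of the other large rises, *fbxa-192* belongs to the F-box A family of ubiquitin ligase adaptors. It had 18.9, 14.8 and 11.5 normalized CPM in *hif-1* worms, against 2.62, 5.47 and 2.93 in wild-type worms (1.93 ± 0.21, adjusted p = 1.57e-05). In wild-type worms of batch 3 it ranged from 7.78 to 9.74 and in those of batch 2 from 0.428 to 1.37, so the level moved with batch in wild-type worms as well. *C18D4.6* had 8.38, 5.63 and 6.46 normalized CPM in *hif-1* worms, against 1.25, 1.80 and 1.96 in wild-type worms (1.75 ± 0.21, adjusted p = 5.53e-05). *tcl-2*, named for its role in the division of the T blast cell of the tail, had 22.4, 14 and 9.03 normalized CPM in *hif-1* worms, against 3.39, 3.27 and 4.92 in wild-type worms (1.77 ± 0.29, adjusted p = 0.00268). These genes were separate between the strains in every library.

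The calls of 3 large rises were lost when single libraries were left out. *cng-1*, a cyclic nucleotide-gated channel subunit, had 5.38, 7.25 and 22.8 normalized CPM in *hif-1* worms, against 1.37, 1.55 and 3.33 in wild-type worms (2.06 ± 0.40, adjusted p = 0.0183). The highest value came from *hif-1* replicate 3, which also had the lowest stage index of the 3, and the call was lost without it (1.46, adjusted p = 0.0785) and without wild-type replicate 1 or 2 (adjusted p = 0.15 and 0.103). *T26H5.9* had 8.65, 3.80 and 4.998 normalized CPM in *hif-1* worms, against 0.654, 1.52 and 0.520 in wild-type worms (2.17 ± 0.39, adjusted p = 0.00854). Its call was lost without *hif-1* replicate 1 (adjusted p = 0.0887), without wild-type replicate 1 (0.0671) or with wild-type replicate 3 left out (0.0643). It was also lost with all batches in the fit, with a batch term (0.098) or without one (0.155), and wild-type worms of batch 2 reached 6.65 normalized CPM of *T26H5.9*, within the range of *hif-1* worms. *Y6G8.2* had 11.03, 8.28 and 5.26 normalized CPM in *hif-1* worms, against 1.60, 3.13 and 0.978 in wild-type worms (1.90 ± 0.36, adjusted p = 0.0129). The adjusted p was 0.123 without *hif-1* replicate 1, 0.0701 without *hif-1* replicate 2, 0.0815 without wild-type replicate 1 and 0.102 with wild-type replicate 3 left out.

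Unlike the iron genes, most rises lay within the range of strains with a wild-type *hif-1* gene. Only 3 of the 43, *ftn-1*, *ftn-2* and *pud-2.2*, lay above all 35 libraries with a wild-type *hif-1* gene, against 8 genes (0.0578%) in the whole table. *pud-2.2*, a gene of the family named for proteins raised in *daf-2* mutants, had 5.95, 5.48 and 2.51 normalized CPM in *hif-1* worms and 0.446, 0.626 and 1.16 in wild-type worms (2.01 ± 0.43, adjusted p = 0.0376). The call of *pud-2.2* held in 8 of the 18 alternatives that gave it a value, with adjusted p of 1.68e-05 to 0.904, and the difference was positive in each. It had 0.0297 and 0.235 in *nuo-6;hif-1* worms, so the double mutant did not share the rise.

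Some of the risen transcripts were as high or higher in the gain-of-function strains *atfs-1(et17)* and *atfs-1(et15)*, and others were lower there. Among those lower, *hif-1* minus *atfs-1(et17)* was 5.05 ± 0.36 for *ftn-1* (limma adjusted p = 8.53e-09) and 2.47 ± 0.35 for *cng-1* (adjusted p = 0.000191). *C07G1.7* ranged from 62.5 to 81.8 normalized CPM in *atfs-1(et17)* and from 80.9 to 116 in *atfs-1(et15)* worms, and *hif-1* minus *atfs-1(et17)* was -2.88 ± 0.27 (adjusted p = 6.18e-07). *C18D4.6* was lower in *hif-1* than in *atfs-1(et17)* worms as well (-1.56 ± 0.18, adjusted p = 1.17e-05). *Y102A5C.36* ranged from 7.36 to 13.4 normalized CPM in *atfs-1(et17)* worms, a range that holds the *hif-1* libraries, and the difference from *hif-1* worms was -0.26 ± 0.19 (adjusted p = 0.591). Over all genes, *hif-1* differed from *atfs-1(et17)* worms in 280 (2.02%) and from the *atfs-1* deletion in 3594 (26.0%). These comparisons and the one with wild-type worms share the 3 *hif-1* libraries.

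*C07G1.7*, *Y102A5C.36* and *C18D4.6* were lower in the *atfs-1* deletion than in *hif-1* worms. *C07G1.7* ranged from 0.902 to 2.14 normalized CPM there, above wild-type worms of the batch (0.0594 to 0.109). *Y102A5C.36* ranged from 0.802 to 1.06 in the deletion, against 0.611 to 0.762 in those wild-type worms. The *hif-1* worms lay above the deletion by 2.44 ± 0.31 (adjusted p = 4.87e-05) and 2.62 ± 0.22 (adjusted p = 1.74e-07) in these 2 genes. *fat-5* was at 1.19 to 1.89 normalized CPM in the deletion, below wild-type worms, and *hif-1* worms exceeded it by 4.56 ± 0.29 (adjusted p = 3.29e-09). Of the fallen genes, *hacd-1* was at 18.1 to 18.5 normalized CPM in the *atfs-1* deletion and *pck-1* at 62.6 to 92.8, and *hif-1* worms did not differ from it past the threshold (-0.12 ± 0.40, adjusted p = 0.839, and -0.22 ± 0.17, adjusted p = 0.352).

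**Figure D5:**
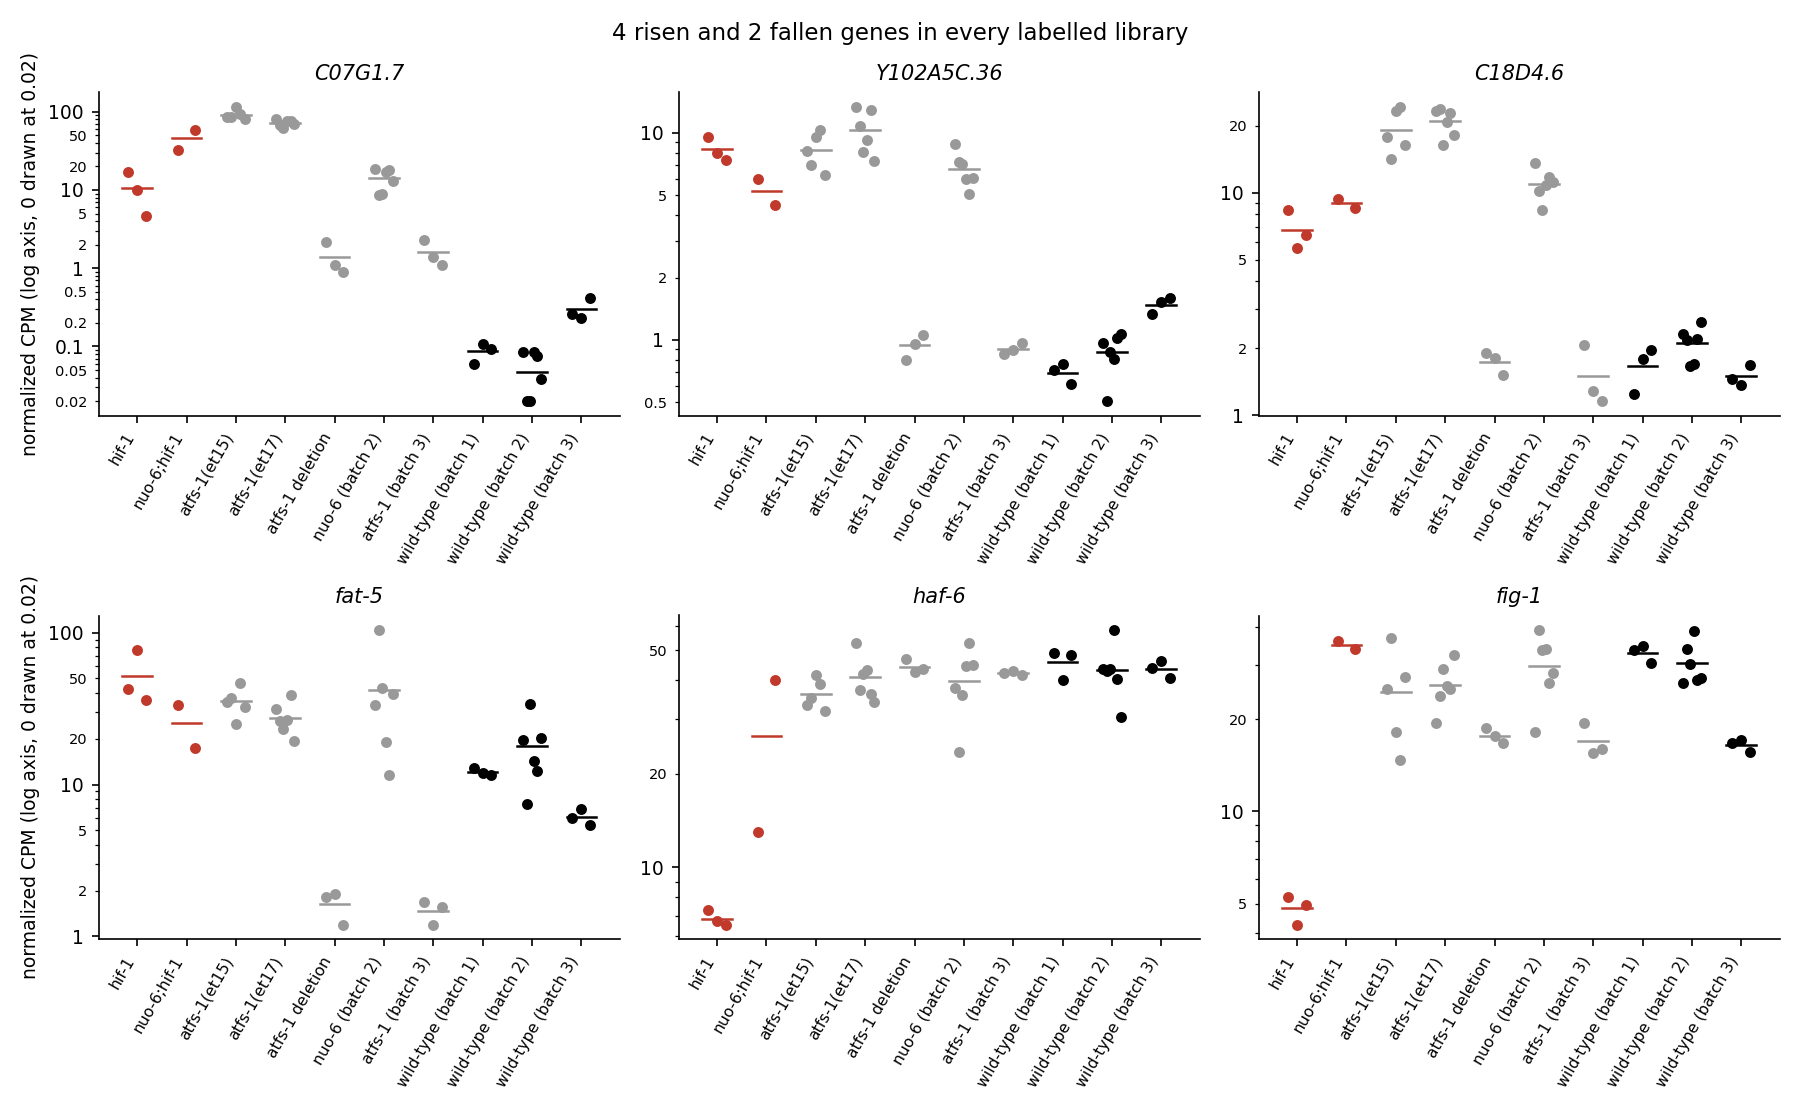
Normalized CPM on a log axis in every labelled library for the risen genes *C07G1.7*, *Y102A5C.36*, *C18D4.6* and *fat-5* and the fallen genes *haf-6* and *fig-1*, 1 point per library with a line at each strain's mean. Strains lacking *hif-1* are red, wild-type black and the rest grey. *C07G1.7* is at 4.66 to 16.7 in *hif-1* worms and at 62.5 or more in both gain-of-function strains, while *haf-6* and *fig-1* are lowest in *hif-1* worms, at most 7.27 and 5.26.

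The *nuo-6* libraries give a comparison that shares no library with the one above, since *nuo-6* and its 6 wild-type libraries were sequenced in batch 2. Of the 43 genes that rose in *hif-1* worms, 34 (79.1%) were also higher in *nuo-6* worms and 0 were lower, where *nuo-6* raised 17.6% of all genes. The same 34 genes are 1.40% of the 2433 genes that rose in *nuo-6* worms. *C07G1.7* (4.68 ± 0.20, adjusted p = 2.91e-09), *Y102A5C.36* (2.39 ± 0.16, adjusted p = 3.29e-07) and *C18D4.6* (2.14 ± 0.15, adjusted p = 3.47e-07) were among them (limma). Of the rest, *ftn-2* (0.22 ± 0.16, adjusted p = 0.303) and *fat-5* (1.01 ± 0.45, adjusted p = 0.104) did not pass the test. Of the 20 genes that fell in *hif-1* worms, 4 fell in *nuo-6* worms, where 13.8% of all genes fell, and 3 rose. The 3 that rose were *pck-1* (1.77 ± 0.12), *sqrd-1* (2.35 ± 0.13) and *hsp-12.3* (1.49), as named after their values were seen. *smf-3*, *nit-1*, *fig-1* and *haf-6* were not called in *nuo-6* worms.

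The called genes were unevenly placed along the genome. Chromosome V held 33 of the 63 (52.4%) and 19.4% of the tested genes with a known position, and the 33 comprised 24 rises and 9 falls, *hif-1* included. The X chromosome held 1 of the 63 and 13.6% of those tested genes. On chromosome V, 12 of the called genes, all of them rises, started between 15 and 18 Mb, a stretch with 287 tested genes. Within 1 Mb of the start of *hif-1*, 3 of 123 tested genes were called, *hif-1*, *Y38H6C.23* and *Y116F11B.10*. This distribution was examined after the values were seen and carries no test.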

How the data were processed

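RNA-seq of whole worms was made with a stranded mRNA kit. The authors aligned reads with STAR 2.5.2b to WBcel235, counted reads per gene, and normalized with edgeR 3.20.1 in R 3.4.1. The deposited CPM table gives read counts on 46739 genes divided by library size, with no other scaling, and 100% of its values above 0 came out within 0.01 of a whole number of reads. The second deposited table, a normalized signal called normalized CPM here, holds the genes the authors kept, with each library's CPM multiplied by 1 constant. Library sizes were 30045912 to 38014038 reads in batch 1.

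The comparison was fitted with limma 3.58.1 (R 4.3.3) on log2(normalized CPM + 0.5) over 13837 genes in the 22 labelled libraries of batch 1, which share 1 estimate of spread with 16 residual degrees of freedom. P-values were adjusted over all genes (Benjamini-Hochberg, threshold 0.05). edgeR 4.0.16 and DESeq2 1.42.0 on recovered reads, other scalings, filters and pseudocounts, and fits without each library were the alternatives. Named genes were *hif-1* and, from calls averaging 5 normalized CPM or more in 1 of the strains with no overlap between libraries, the 12 that rose most and the 12 that fell most. Members of the lists were named as their account required, called members first. The fit was also run on simulated counts drawn for each gene on its own. Those counts hold no stage differences shared between genes, so that run does not bear on such differences here. Members and gene lists (26 lists, 357 genes tested) were chosen with earlier results of these data known. A planned search of promoters for motifs was not run, since no promoter sequence was used here. Libraries without a group in the labels (3) were not used. Figures were drawn with matplotlib 3.10.9.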

Additional observations from a re-analysis of the deposited data

How the results depend on the processing

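Of the alternatives, DESeq2 on recovered reads called 132 genes (94 higher and 38 lower in *hif-1* worms), the stage index as a covariate 101 (68 and 33), and the fit of all 12 wild-type libraries with no batch term 134 (96 and 38). Fewer genes were called with a mean of at least 5 CPM, which tests 10428 genes (36, of which 26 higher and 10 lower), with an adjusted p under 0.01 (37, of which 23 higher), with a pseudocount of 2 CPM (27 higher) and in the 6 libraries alone (16, of which 8 higher and 8 lower). Leaving out 1 library gave 38 to 72 calls, 24 to 54 of them higher and 14 to 23 lower. edgeR called 72 genes, and the remaining alternatives, apart from the replicate block given below, gave counts within 1.5 times those of the report. No named gene reversed in any alternative. All 24 were called with edgeR, DESeq2, no filter, a pseudocount of 0.1 CPM and the stage covariate, and 12 in the 6 libraries alone. Leaving out *hif-1* replicate 3 and wild-type replicate 2, chosen after seeing the data, gave 61 calls and kept 21 of the 24. The causes were not tested.

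Same-numbered libraries of the strains correlated at 0.42, -0.35 and -0.64 in their deviations from the strain means. The highest correlation, 0.78, was between *hif-1* replicate 3 and wild-type replicate 2, which had the lowest stage index of their strains. Since stage-linked variation enters these correlations, they cannot show whether same-numbered libraries were collected or prepared together. With the replicate block in the 6 libraries, limma called 0 genes, 0 higher and 0 lower, with 341 at an unadjusted p under 0.05 (edgeR and DESeq2 without the block called 72 and 132). The comparison has 3 libraries a strain and 1 allele, and normalized CPM is relative to the whole library.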

Other observations

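Outside the calls of the report, 24 genes were called both by DESeq2 and with the stage index as a covariate, and those named here were chosen after their values were seen. One, *fpn-1.2*, encodes a ferroportin of the iron exporter family. It had 1.89, 2.24 and 1.34 normalized CPM in *hif-1* worms, against 6.06, 5.36 and 4.28 in wild-type worms, with no overlap. The difference was -1.31 ± 0.29 (limma adjusted p = 0.051), and the adjusted p was 0.0387 with the stage covariate and 0.00261 with DESeq2. The *nuo-6;hif-1* libraries had 0.653 and 2.56.

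Another was *atp-6*, a subunit of the ATP synthase encoded in the mitochondrial genome. It had 1614, 1761 and 1765 normalized CPM in *hif-1* worms, against 895, 724 and 747 in wild-type worms (1.12 ± 0.26, limma adjusted p = 0.0579). The adjusted p was 0.0354 with the stage covariate and 0.00347 with DESeq2. The chaperone gene *hsp-6* gave 0.0354 and 0.000433 in the same fits.

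F-box genes of the fbxa, fbxb and fbxc families were counted after 1 of them was seen among the large rises. Of 136 tested, 5 (3.68%) rose and 0 fell in *hif-1* worms, against 0.311% and 0.145% of all genes, with a median difference of 0.14 against -0.01 over all genes. No test was made of this pattern.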
